A study of Homo sapiens with 14 samples.

Results

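The miRNAs described here are 5 mature entries of 2 small families that lie in introns of host genes: miR-103a-3p and miR-107 of the miR-103/107 family, and miR-26a-5p, miR-26b-5p and miR-26b-3p of the miR-26 family. They were taken by name from the 2588 mature miRNAs of each count table, and 4 of the 5 had a count in any library. The study asked which small RNAs of A549 cells, a human lung adenocarcinoma cell line, carry N7-methylguanosine (m7G) within their sequence. In BoRed-seq, A549 RNA was mixed with free m7GTP. It was then treated with the reducing agent NaBH4 (Red, 2 libraries) or with NaBH4 that acid had already quenched (Ctrl, 2 libraries). Both were then brought to low pH, which leaves a gap in place of a reduced m7G, given a biotin probe for such gaps and pulled down on streptavidin. In m7G-RIP-seq, an m7G antibody was used to capture RNA of the same line after heat had unfolded it (IP, 5 libraries), and the captured RNA was compared with RNA kept from before that step (Input, 5 libraries).

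A miRNA is cut from a hairpin, and its bases 2 to 8, the seed, pair with target mRNAs. The miR-103/107 hairpins lie in PANK genes, whose products, the pantothenate kinases, begin the synthesis of coenzyme A, and the miRNAs are known as regulators of metabolism and of DICER1. The miR-26 hairpins lie in CTDSP genes, whose products are small phosphatases of RNA polymerase II, and miR-26 is known to repress EZH2 and other genes of growth. For either family, m7G pulldown reads only the mature strand that was sequenced, not the hairpin or the host transcript.

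The mature sequences are shown because the counts of near-identical strands cannot be separated fully and because the methylated base is a guanosine. They were taken from RefSeq on GRCh38.p14, with the seed in capitals.
hsa-miR-103a-3p: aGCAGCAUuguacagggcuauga
hsa-miR-107: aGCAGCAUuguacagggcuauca
hsa-miR-26a-5p: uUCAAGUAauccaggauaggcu
hsa-miR-26b-5p: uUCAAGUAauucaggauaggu
hsa-miR-26b-3p: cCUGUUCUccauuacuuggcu

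Counting from 1 at the 5′ end, miR-103a-3p and miR-107 differed by G22C alone, so that a read ending at base 21 or before belongs equally to both. miR-26a-5p and miR-26b-5p shared their first 10 bases and differed by C11U and C21U, and the second is also a base shorter. miR-26b-3p is the opposite arm of the miR-26b hairpin and has another seed. The members held 3 to 7 guanosines each, with 3 in miR-26b-3p, 5 in miR-26a-5p and in miR-26b-5p, 6 in miR-107 and 7 in miR-103a-3p. Guanosine made up 26.1% of miR-107, 22.7% of miR-26a-5p, 23.8% of miR-26b-5p and 14.3% of miR-26b-3p, against a median of 27.3% over the 602 tested m7G-RIP-seq miRNAs with a sequence. Among those 602, the median was 40.9% in miRNAs enriched in IP and 22.7% in miRNAs depleted there.

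On GRCh38, the build of the counts, each of the 6 hairpins lay on the strand of its host, within an intron. miR-103a-3p comes from 2 hairpins, MIR103A1 (chr5:168560896-168560973, minus strand) in PANK3 and MIR103A2 (chr20:3917494-3917571, plus strand) in PANK2. miR-107 comes from MIR107 (chr10:89592747-89592827, minus strand) in PANK1. miR-26a-5p comes from MIR26A1 (chr3:37969404-37969480, plus strand) in CTDSPL and from MIR26A2 (chr12:57824609-57824692, minus strand) in CTDSP2, and both miR-26b arms come from MIR26B (chr2:218402646-218402722, plus strand) in CTDSP1.

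Red libraries held 242085 and 277498 counts, Ctrl libraries 4678102 and 5874405, IP libraries 2854811 to 6452759 and Input libraries 7097379 to 14874685. miR-21-5p, an abundant miRNA of this line, took 79.0% and 80.4% of the counts in Ctrl and 26.7% and 26.9% in Red. Its share was 38.0% to 46.3% in Input and 4.64% to 6.27% in IP. Of 14 marker miRNAs of other cell types, 1 was at 0 throughout (miR-122-5p, whose bases an opposite-strand entry shares). The summed level of the list was 322 to 522 CPM (a count divided by the total of its library, times 1000000) in Input, 314 to 1114 in IP, 269 and 304 in Ctrl and 169 and 364 in Red. Nearly all of it in Input was miR-126-3p, a marker of endothelium, at 316 to 515 CPM. The part of these markers in the results was not tested. No source used here says whether libraries of a group came from separate cultures, so p-values measure the spread between libraries, which may be technical.

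miR-103a-3p was listed at 0 in all 14 libraries, so it has no level and no enrichment here. The entry miR-103b, read from the other strand at the same bases of chromosomes 5 and 20 and the exact reverse complement of miR-103a-3p, was listed at 0 in all 14 as well. Of 59 entries that share at least 90% of their bases with a mature entry of the opposite strand at every locus, 56 were at 0 in all libraries, or 94.9%. Of 2198 entries that no mature entry of the opposite strand overlaps at all, 615 were at 0, or 28.0%. The listed 0 of miR-103a-3p is therefore given as a value of the table, not as absence from the cells, and its cause was not tested. miR-103a-2-5p, the other arm of the PANK2 hairpin, had 29 counts over the 5 Input libraries, 16 and 11 of them in replicates 4 and 5, and 0 over the 5 IP libraries. In BoRed-seq it had 2 and 0 counts in Ctrl and 5 and 0 in Red, too few for a comparison. The other arm of the PANK3 hairpin, miR-103a-1-5p, was not an entry of the count tables under that name.

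Among the members with counts, miR-26a-5p was the most abundant by far. In Input it stood at 6110 to 7892 CPM, a mean of 6889 ± 711 (SD, n = 5), which placed it 16th by mean among the 2588 entries. miR-107 followed at 282 ± 131 and miR-26b-5p at 207 ± 89.8, and these neighbours in the order differed by less than their spread between libraries. Within each Input library, however, miR-107 had more counts than miR-26b-5p, by 1.25 to 1.49 times. miR-26b-3p was the least abundant at 2.29 ± 1.20 CPM, from 17 to 36 counts a library. Entries were 21 to 23 bases long, and these levels were not corrected for length. How reads of several loci were counted is not given, which bears on miR-26a-5p with its 2 hairpins.

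miR-107 was lower in both pulldowns than in their controls once the libraries were scaled to the typical miRNA, and the fall was about 2-fold in each. In BoRed-seq its raw counts were 731 and 393 in Ctrl and 18 and 33 in Red. Normalized to size factors that take the typical miRNA as unchanged, these were 202 and 146 in Ctrl and 66.7 and 80.8 in Red. Both Red libraries lay below both Ctrl libraries, and the log2 enrichment was -1.23 ± 0.45 (SE, n = 2 per group), 2.35-fold lower, with an adjusted p of 0.0119 in the DESeq2 Wald test over all miRNAs.

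Few reads stand behind this value, and it depends on the scaling. As a share of all counts miR-107 was at 124 and 84.0 CPM in Ctrl and 74.4 and 119 in Red, so that the groups overlapped, and with total-count factors the log2 was -0.10 (DESeq2 adjusted p = 0.865). Leaving out Ctrl replicate 1, Ctrl replicate 2 or Red replicate 1 ended the call (DESeq2 adjusted p = 0.300, 0.0661 and 0.173). Thinning the Ctrl reads to the depth of Red gave a log2 of -0.61 and ended it as well.

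In m7G-RIP-seq the normalized count of miR-107 was 1674, 1481, 1608, 3037 and 3425 in Input replicates 1 to 5. In IP replicates 1 to 5 it was 686, 904, 757, 1658 and 1412. IP was below the Input of the same replicate number in 5 of 5 pairs, by 0.71 to 1.29 on the log2 scale, although the ranges of the groups overlapped because both groups were higher in replicates 4 and 5. The log2 enrichment was -1.05 ± 0.35 (SE, n = 5 per group), 2.07-fold lower, with an adjusted p of 0.00560 (DESeq2), and it was -1.06 in replicates 1 to 3 alone and -1.10 in replicates 4 and 5 alone. The log2 remained negative under total-count factors (-0.75), where the DESeq2 adjusted p was 0.0645. The fall was as large within each set of replicates as over all of them.

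**Figure D1:**
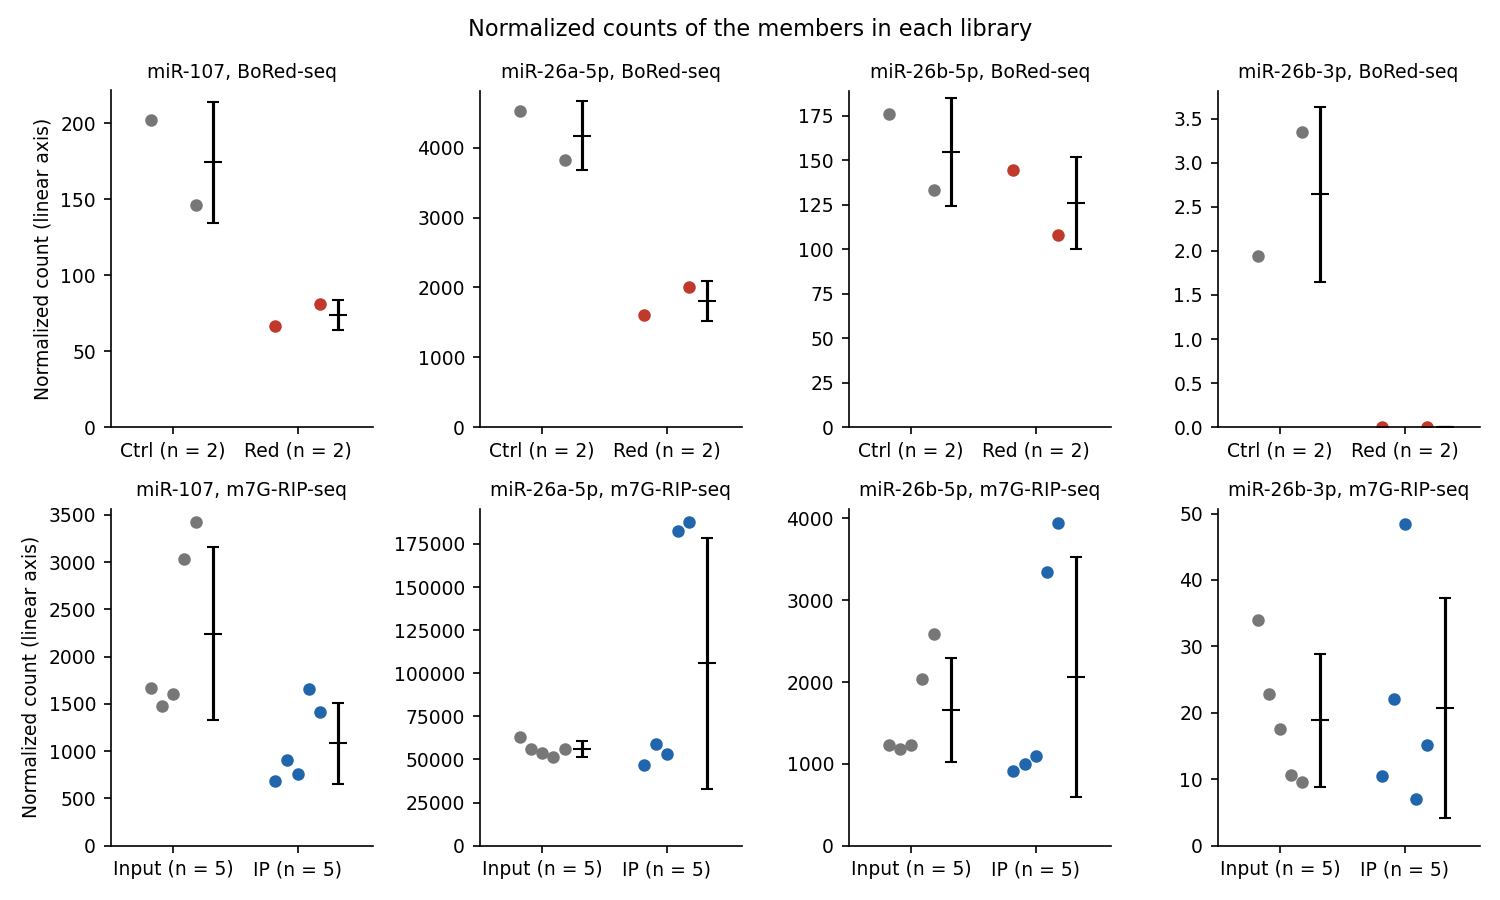
Normalized counts of miR-107, miR-26a-5p, miR-26b-5p and miR-26b-3p (columns; linear axes from 0, each with its own range) in BoRed-seq (top) and m7G-RIP-seq (bottom). Points are libraries in order of replicate number, and the bar beside them is the mean ± SD. The points of Red lie below those of Ctrl for miR-107 and miR-26a-5p, and the IP points of miR-26a-5p form a low set of 3 and a high set of 2.

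miR-26a-5p fell in the BoRed-seq pulldown and was higher over the 5 IP libraries, where the rise rested on 2 of them. In BoRed-seq the raw counts were 16325 and 10289 in Ctrl and 432 and 818 in Red. The normalized counts were 4518 and 3826 in Ctrl and 1600 and 2002 in Red, without overlap. The log2 enrichment was -1.21 ± 0.29 (SE, n = 2 per group), 2.31-fold lower, with an adjusted p of 6.13e-05 in DESeq2. This call too was relative to the typical miRNA. As a share of all counts the values were 2779 and 2199 CPM in Ctrl and 1785 and 2948 in Red, and total-count factors gave a log2 of -0.07 (DESeq2 adjusted p = 0.865). Leaving out Red replicate 1 gave a DESeq2 adjusted p of 0.0650.

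In m7G-RIP-seq the normalized count of miR-26a-5p was 63308, 55913, 53530, 51484 and 56043 in Input replicates 1 to 5. In IP it was 46570, 58709 and 53006 in replicates 1 to 3, of which 2 lay within the range of Input and 1 below it, and 182547 and 187541 in replicates 4 and 5. The groups overlapped, and the mean was 56056 ± 4469 in Input and 105675 ± 72603 in IP (SD, n = 5 each).

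The log2 enrichment over all 5 replicates was 0.91 ± 0.41 (SE), 1.89-fold, with an adjusted p of 0.0467 in DESeq2. With the replicate number as a block it was 0.63 (DESeq2 adjusted p = 0.114), and without IP replicate 4 or IP replicate 5 the DESeq2 adjusted p was 0.170 and 0.180. Leaving out any 1 of the 5 Input libraries also ended the call, at DESeq2 adjusted p of 0.0788 to 0.0902. It was -0.16 ± 0.14 in replicates 1 to 3 alone (DESeq2 adjusted p = 0.323) and 1.75 in replicates 4 and 5 alone. The split of the replicates into 1 to 3 and 4 and 5 was known from earlier results of these libraries and has no label, so the difference between the sets was not tested. miR-26a-5p was therefore enriched in the 2 IP libraries of replicates 4 and 5 and showed no call in the other 3.

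miR-26b-5p, which shares its seed with miR-26a-5p, passed the test in neither assay. In BoRed-seq its raw counts were 636 and 358 in Ctrl and 39 and 44 in Red. Its normalized counts were 176 and 133 in Ctrl and 144 and 108 in Red, which overlapped. The log2 enrichment was -0.31 ± 0.42 (SE, n = 2 per group; DESeq2 adjusted p = 0.538). Its sign depended on the scaling, since total-count factors gave 0.79 (DESeq2 adjusted p = 0.135) and total counts without miR-21-5p gave -1.05 (DESeq2 adjusted p = 0.0273).

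In m7G-RIP-seq miR-26b-5p had normalized counts of 1231, 1187, 1234, 2037 and 2592 in Input replicates 1 to 5. In IP these were 918, 1003, 1092, 3346 and 3948, below Input of the same number in replicates 1 to 3 and above it in replicates 4 and 5. The log2 enrichment over all replicates was 0.32 ± 0.46 (SE, n = 5 per group; DESeq2 adjusted p = 0.572). It was -0.32 in replicates 1 to 3 alone and 0.62 in replicates 4 and 5 alone. No p-value is given for miR-26b-5p in these sets, which were known from earlier results of these libraries. The same 2 replicates that were high for miR-26a-5p were thus high for miR-26b-5p, with a smaller rise.

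miR-26b-3p, the minor arm of MIR26B, had 7 and 9 counts in Ctrl and 0 in both Red libraries. In Red, 3 counts would be 12.4 and 10.8 CPM, above the 1.19 and 1.92 CPM of Ctrl, so a fall could not be detected at this depth. The entry did not pass the filter on low counts. In m7G-RIP-seq its counts were 30, 36, 25, 17 and 18 in Input and 8, 18, 23, 7 and 12 in IP. The normalized counts overlapped from end to end, and the log2 enrichment was 0.11 ± 0.62 (SE, n = 5 per group; DESeq2 adjusted p = 0.893). As a share of both miR-26b arms it ranged from 0.369% to 2.68% in Input and from 0.212% to 4.25% in IP.

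**Figure D2:**
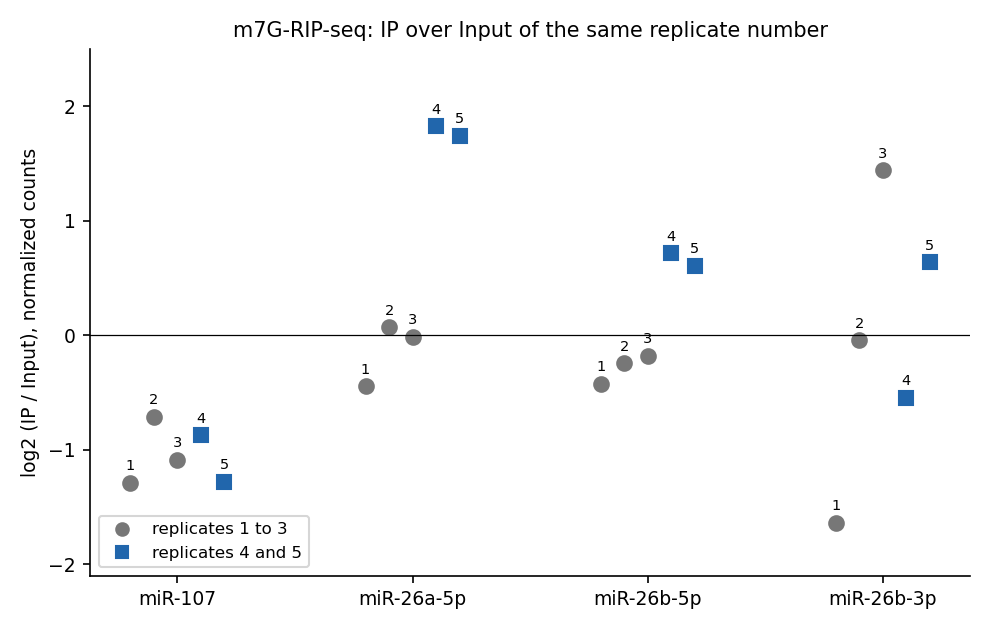
log2 of IP over Input of the same replicate number in m7G-RIP-seq, from normalized counts with 0.5 added, for each member with counts. Numbers beside the points are replicate numbers, circles mark replicates 1 to 3 and squares replicates 4 and 5. All 5 points of miR-107 lie below 0, while miR-26a-5p lies at 1.83 and 1.74 in replicates 4 and 5 and between -0.44 and 0.07 in the other 3.

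The members were then read against all miRNAs. In BoRed-seq 27.2% of the 400 miRNAs with an adjusted p were depleted in Red and 32.2% enriched, and of the 3 members tested, 2 were depleted (miR-107 and miR-26a-5p) and 0 enriched. In m7G-RIP-seq 29.9% of 670 miRNAs were depleted in IP and 27.3% enriched, and of the 4 members tested, 1 was depleted (miR-107) and 1 enriched (miR-26a-5p, by the call that rested on replicates 4 and 5). The median log2 of the members was -1.21 in BoRed-seq, where that of all tested miRNAs was -0.09. In m7G-RIP-seq the medians were 0.21 and 0.02.

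The difference between the assays was tested for each miRNA with a two-sided z test on the DESeq2 standard errors, and 38% of the 384 miRNAs tested in both passed after adjustment. miR-26a-5p passed, with a log2 that was lower in BoRed-seq than in m7G-RIP-seq (difference -2.13 ± 0.50, SE; adjusted p = 1.42e-04 in the z test on DESeq2 estimates). For miR-107 the difference was -0.18, with a 95% interval from -1.29 to 0.93 (adjusted p = 0.834 in the same test on DESeq2 estimates). For miR-26b-5p it was -0.62, with an interval from -1.84 to 0.60 (adjusted p = 0.452 in that test on DESeq2 estimates). The intervals of miR-107 and miR-26b-5p hold 0 and also differences of more than 2-fold, so similar enrichment in both assays was not shown.

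**Figure D3:**
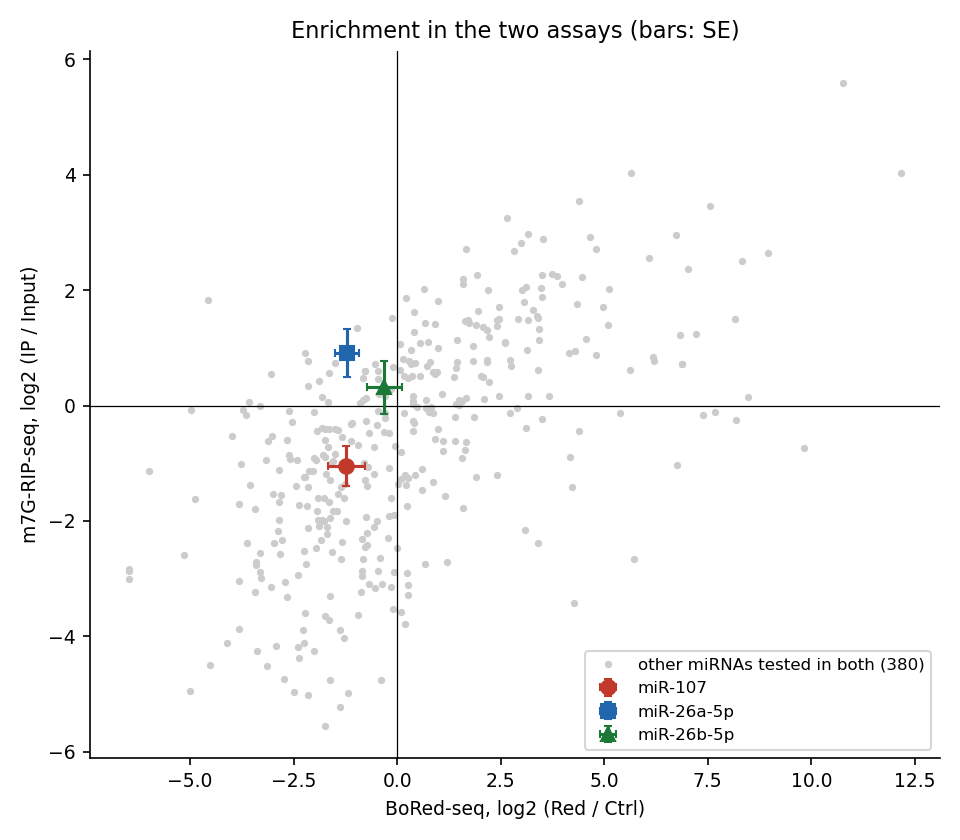
log2 enrichment in BoRed-seq (x axis, Red over Ctrl) and in m7G-RIP-seq (y axis, IP over Input) of miRNAs tested in both assays, miR-26a-2-3p left out for its low Red counts. Gray points are other miRNAs, colored symbols are miR-107, miR-26a-5p and miR-26b-5p, and bars are SE. miR-107 lies at -1.23 and -1.05, and miR-26a-5p at -1.21 and 0.91.

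Ratios of members within a library do not depend on how libraries are scaled. For miR-107 against miR-26b-5p, a comparison chosen after the counts had been seen, the order of the counts turned round in both pulldowns. The ratio of raw counts was 1.15 and 1.10 in Ctrl and 0.462 and 0.750 in Red. It was 1.36, 1.25, 1.30, 1.49 and 1.32 in Input and 0.747, 0.902, 0.693, 0.495 and 0.358 in IP. All 7 control libraries of the 2 assays were thus above 1 and all 7 pulldown libraries below 1.

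On the log2 scale, with 0.5 added to each count, the ratio of miR-107 to miR-26b-5p was 0.42 ± 0.10 in Input and -0.72 ± 0.53 in IP (mean ± SD, n = 5 each), a difference of -1.14 or 2.21-fold. It was lower in IP than in Input of the same number in 5 of 5 pairs, and the difference was -0.75 over replicates 1 to 3 and -1.74 over replicates 4 and 5. In BoRed-seq the log2 difference was -0.92 without overlap of the groups. Since the pair was picked for this pattern, the values are a description with no test.

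The ratio of miR-107 to miR-26a-5p, also chosen after the counts had been seen, was lower in IP than in Input, and in BoRed-seq its groups overlapped. In BoRed-seq the ratio was 0.0448 and 0.0382 in Ctrl and 0.0417 and 0.0403 in Red, a log2 difference of 0.02. In m7G-RIP-seq it ran from 0.0264 to 0.0611 in Input and from 0.00753 to 0.0154 in IP, without overlap. The log2 difference was -1.68, 3.21-fold, and it was -0.90 over replicates 1 to 3 and -2.86 over replicates 4 and 5. These values too are given with no test.

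For the 2 miR-26 strands of one seed, no difference in ratio passed the adjusted test. miR-26b-5p was 3.75% and 3.36% of their summed counts in Ctrl and 8.28% and 5.10% in Red, so its ratio to miR-26a-5p was higher in Red by 0.93 on the log2 scale, with no overlap (p = 0.333 in the exact permutation test, the smallest it allows). In Input the share was 1.91%, 2.08% and 2.25% in replicates 1 to 3 and 3.81% and 4.42% in replicates 4 and 5. In IP it was 1.68% to 2.06% in all 5 replicates. The log2 difference in m7G-RIP-seq was -0.54 (p = 0.0476 in the two-sided exact permutation test, adjusted over all 7 ratios 0.111), which missed the threshold after adjustment. The 7 include the miR-107 ratios chosen after the counts had been seen, whose p-values are not given and can lower this adjusted p. The ratio of miR-26b-3p to miR-26b-5p differed by -0.10 (p = 0.921 in the same exact permutation test, adjusted 1), less than its SD of 1.23 in Input.

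**Figure D4:**
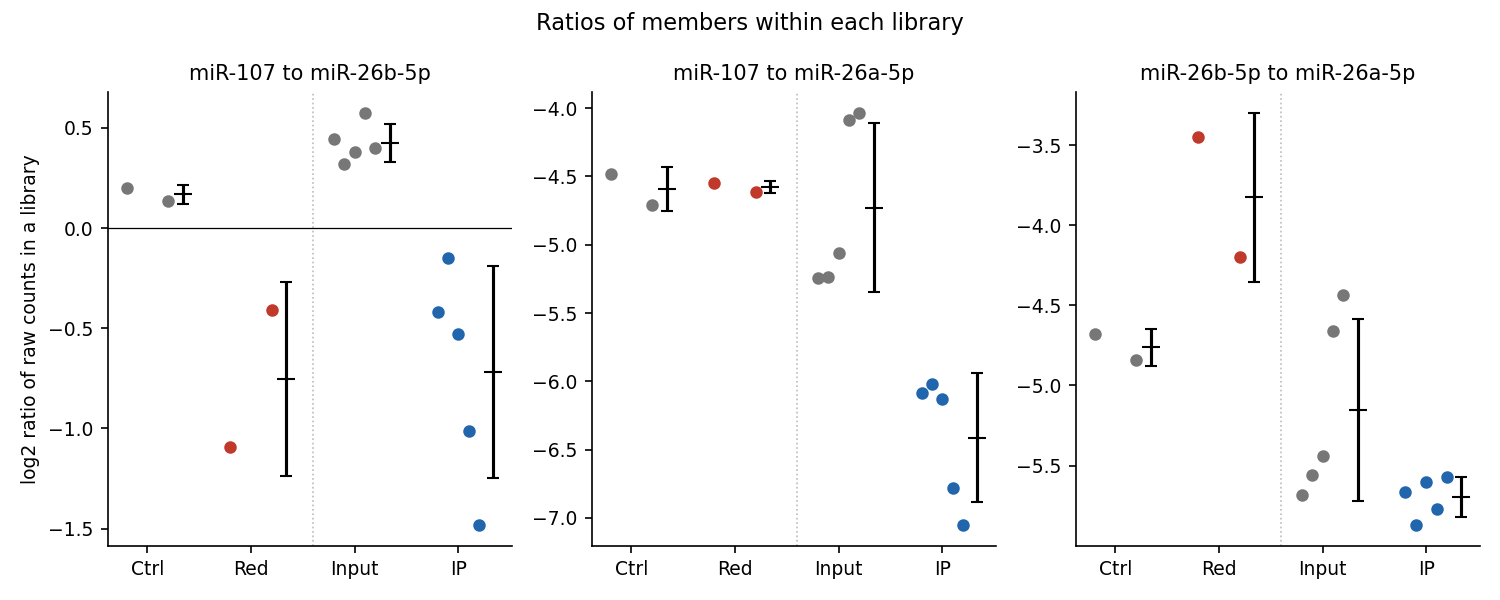
log2 ratio of the raw counts of 2 members within each library, for 3 pairs (panels, each with its own axis range). Points are libraries in order of replicate number, bars are mean ± SD, and the dotted line parts BoRed-seq from m7G-RIP-seq. In the first panel all 7 control points lie above 0 and all 7 pulldown points below 0, while in the second the Ctrl and Red points overlap.

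Of 7 other miRNAs, made from the same hairpins or sharing a seed with a member, miR-103a-1-5p was not listed. Only miR-26a-2-3p, the opposite arm of the CTDSP2 hairpin, passed the filters. Its counts were 2, 18, 3, 13 and 20 in Input and 41, 26, 0, 110 and 84 in IP. IP was above Input of the same number in 4 of 5 pairs, the exception being replicate 3. The log2 enrichment was 3.13 ± 0.86 (SE, n = 5 per group; DESeq2 adjusted p = 6.92e-04), and in replicates 1 to 3 alone it was 2.39 (DESeq2 adjusted p = 0.125).

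In BoRed-seq miR-26a-2-3p had 26 and 58 counts in Ctrl, or 4.43 and 12.4 CPM, and 0 and 1 in Red. At the depth of Red, 3 counts would be 12.4 and 10.8 CPM, so both Red counts lay below this floor and no fold is given. DESeq2 made no call in the main fit (adjusted p = 0.110), with TMM factors (0.0938) or without a filter (0.103). A depletion was called by the edgeR quasi-likelihood test (adjusted p = 0.0163) and by DESeq2 with total counts without miR-21-5p (adjusted p = 0.0444). The call of this strand thus depended on the fit. The arm of the other hairpin, miR-26a-1-3p in CTDSPL, had 8 counts over the 5 Input libraries and 23 over the 5 IP libraries, against 56 and 261 for miR-26a-2-3p. miR-1297, which shares the miR-26 seed, had 5 counts over Input and 3 over IP, and miR-4465, with the same seed, was listed at 0 in all 14 libraries.

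The bases 2 to 7 of miR-107 occur, shifted along by a base, in the miR-15 and miR-16 family, which is known for restraint of the cell cycle. For comparison, with bases 2 to 8 in capitals:
miR-16-5p: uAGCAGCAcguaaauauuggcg
Of 10 miRNAs with these bases near the 5′ end, 4 were tested in BoRed-seq, with 2 depleted and 0 enriched and a median log2 of -2.16, where 27.2% of all tested miRNAs were depleted and the median was -0.09. In m7G-RIP-seq 5 were tested, with 1 depleted and 0 enriched and a median of 0.06, where 29.9% of all were depleted and the median was 0.02.

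Other tested miRNAs of which every hairpin lies, like those of the members, in a same-strand intron of a protein-coding gene numbered 112 in BoRed-seq. Of these, 35 were depleted, or 31.25% beside 27.2% of all tested miRNAs, and 24 were enriched, where 32.2% of all were. Their median log2 was -0.82 beside -0.09. Of the 313 tested BoRed-seq entries with a known hairpin, 25.6% were depleted and 98 were enriched, with a median of -0.10. In m7G-RIP-seq there were 232, with 72 depleted, or 31.0% beside 29.9% of all, and a median of 0.06 beside 0.02. There 55 were enriched, where 27.3% of all were. These depleted shares lay near those of all miRNAs, while the median in BoRed-seq lay below theirs. The enriched share of the list was also below that of all miRNAs in both assays, a difference that was not tested.

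By the pattern of log2 normalized counts over the 10 m7G-RIP-seq libraries, and among 312 other miRNAs with a mean of at least 100, miR-107 was most like miR-23b-3p (Pearson r = 0.99) and miR-494-3p (r = 0.98). miR-26a-5p was most like miR-370-3p (r = 0.97) and miR-106b-3p (r = 0.96). miR-26b-5p was most like miR-126-3p (r = 0.96) and miR-151a-5p (r = 0.93). None of the 3 members had another member among its nearest. These correlations describe libraries that share the IP and Input split and the 2 sets of replicates, and they carry no test.

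**Figure D5:**
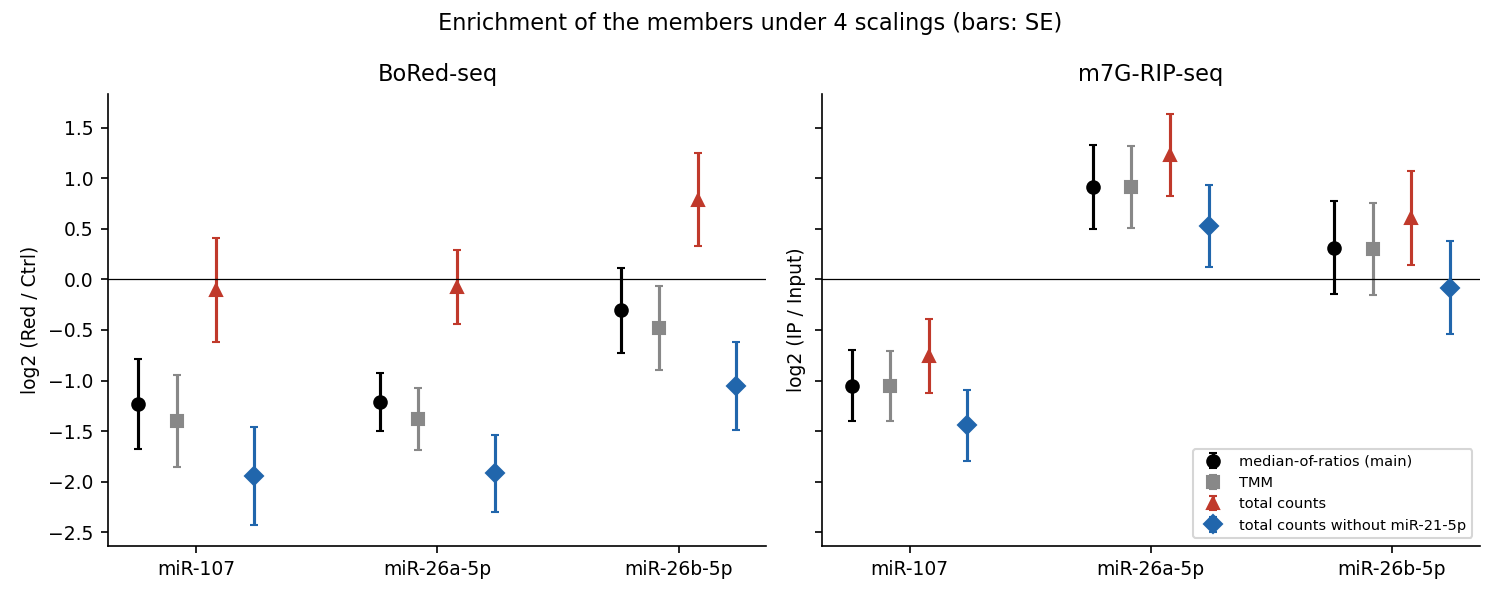
log2 enrichment of miR-107, miR-26a-5p and miR-26b-5p in BoRed-seq (left) and m7G-RIP-seq (right) under 4 ways of scaling the libraries in DESeq2, with SE as bars. Total counts (triangles) put miR-107 and miR-26a-5p at -0.10 and -0.07 in BoRed-seq, and total counts without miR-21-5p (diamonds) put them at -1.95 and -1.92.

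The scaling of BoRed-seq moved all miRNAs together. Total-count factors raised the log2 of the median miRNA by 1.12 against the main factors and took the enriched share of all calls from 54.2% to 79.2%, while total counts without miR-21-5p shifted it by -0.73. Under the latter, added after the data had been seen, miR-107 had a log2 of -1.95 and miR-26a-5p of -1.92. In m7G-RIP-seq the shifts of the median miRNA were 0.33 and -0.38, the enriched share went from 47.8% to 58.6% and 36.6%, and the log2 of miR-107 was -0.75 and -1.44. A change of scaling moves every miRNA alike, so these values place miR-107 and miR-26a-5p against the scale chosen, not anew against other miRNAs.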

How the data were processed

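Each assay had a deposited table of raw read counts over mature miRNAs, which together held 14 small RNA libraries. The authors trimmed adaptors with Trimmomatic, aligned reads to GRCh38 (hg38) and counted them over mature miRNAs of miRBase with featureCounts. The aligner is STAR in the methods of the study and Bowtie2 in the submitters' processing notes. How featureCounts treated strand, overlapping entries and reads of several loci is not given in the sources used here. The counts had been neither normalized nor pooled, and 0 columns matched no sample.

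Enrichment was tested with DESeq2 1.42.0 (Wald test, R 4.3.3) in a fit per assay, pulldown over control, of entries that reached 10 counts in 2 or more BoRed-seq or 5 or more m7G-RIP-seq libraries, with median-of-ratios factors. p-values were adjusted over all miRNAs by the Benjamini-Hochberg method, with calls under 0.05. Floors of 3 counts cover counting error alone, since the counts carry no molecular identifiers. Ratios were compared in scipy 1.17.1, and alternatives included edgeR 4.0.16. Sequences and loci came from RefSeq (GRCh38.p14) and hosts from GENCODE. Of the 2588 entries, 2281 matched the sequence table by name.

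Members, lists and tests were chosen with earlier results of these data known. Members and their hairpin or seed partners are named always, the extended seed and intronic lists by counts, and the 2 most alike miRNAs by r. Replicate pairing was checked by the correlation, over miRNAs, of same-numbered libraries' deviations from their group means. It was 0.15 to 0.39 in the 5 m7G-RIP-seq pairs, although 2 of 5 Input libraries correlated best with another number. Input and IP share the split into 2 sets of replicates, which by itself can make same-numbered libraries correlate. The check therefore cannot tell pairing from this split, and the m7G-RIP-seq pairs follow the replicate numbers alone. In BoRed-seq, with 2 pairs, the correlation was 0.11. Replicates always differed by more than sampling noise, with a chi-square of at least 10.4 per degree of freedom. In Input it was 25.8 to 150 within replicates 1 to 3 and within 4 and 5, but 438 to 655 between these sets. In IP it was 46.6 to 79.9 within the sets and 757 to 1382 between them, so the sets differed over the whole profile.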

Additional observations from a re-analysis of the deposited data

Results flagged for a closer look

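miR-26a-5p was flagged because its enrichment differed between the assays by the z test on the DESeq2 estimates, which 38% of 384 miRNAs passed. The log2 of Red over Ctrl was -1.21 and that of IP over Input 0.91, a difference of -2.13 ± 0.50 (SE; adjusted p = 1.42e-04). As given in the report, the m7G-RIP-seq value rested on replicates 4 and 5. Of 16 sets of 5 libraries examined for a member's normalized count or ratio, none held a single library far from the other 4, where chance flags about 1 in 20. This check looks for 1 library alone. It is not built to flag 2 that are high together, as IP replicates 4 and 5 were for miR-26a-5p.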

How the results depend on the processing

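All values are log2 from DESeq2, with its adjusted p, unless a tool or a count is named. In BoRed-seq, total-count factors gave miR-107 -0.10, miR-26a-5p -0.073 and, reversed in sign, miR-26b-5p 0.79. Thinning Ctrl to the depth of Red gave miR-107 -0.61, which ended its call (adjusted p = 0.50), miR-26a-5p -0.83, which stayed called, and miR-26b-5p 0.31. Total counts without miR-21-5p, added after the data had been seen, gave miR-26b-5p -1.05. Leaving out a library gave -1.49 to -0.97 for miR-107, -1.46 to -0.92 for miR-26a-5p and -0.53 to -0.18 for miR-26b-5p. Called miRNAs went from 129 enriched and 109 depleted of 400 tested to 71 and 71 of 191 tested with 10 counts in every library. There were 167 depleted in edgeR, 46 with total-count factors and 62 to 86 with a library left out, the 62 without Ctrl replicate 2.

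In m7G-RIP-seq, miR-107 was at -0.75 with total-count factors and at -1.25 to -0.86 with a library left out. For miR-26a-5p the value was 0.91 in edgeR (adjusted p = 0.0518), 0.88 without a filter, 0.53 with total counts without miR-21-5p, 0.63 with the replicate block, 0.90 with both miR-26 5p strands summed, 0.62 with a term for replicates 1 to 3 against 4 and 5, and -0.16 in replicates 1 to 3 alone. It was 0.61 to 1.10 with a library left out, where 7 of 10 such fits ended the call. miR-26b-5p was at -0.081 with total counts without miR-21-5p, -0.32 in replicates 1 to 3 alone, 0.62 in replicates 4 and 5 alone and -0.044 to 0.53 with a library left out. miR-26b-3p was at -0.23 with total counts without miR-21-5p, -0.0045 with the replicate block and -0.47 to 0.37 with a library left out. Depleted miRNAs went from 200 of 670 tested to 116 of 362 with 10 counts in every library. Differences between the assays turned to 0.65 (miR-107) and 0.18 (miR-26b-5p) with total-count factors, and that of miR-26a-5p kept its direction and call at -1.30 there and at -2.53 in 1 fit over both assays.

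For ratios in m7G-RIP-seq, the replicate block, an exact sign-flip permutation test, gave the same mean difference of -0.54 for miR-26b-5p to miR-26a-5p, with p = 0.125. For miR-107 to miR-26b-5p and to miR-26a-5p, chosen after the counts had been seen, the mean differences of -1.14 and -1.68 were again the same under the block, where p cannot go below 0.0625. In replicates 1 to 3 and in 4 and 5 the differences were -0.75 and -1.74 for miR-107 to miR-26b-5p, and -0.90 and -2.86 for miR-107 to miR-26a-5p. For miR-26b-5p to miR-26a-5p, replicates 4 and 5 gave -1.12. Leaving out a library gave -1.29 to -0.95, -1.81 to -1.51 and -0.67 to -0.36 for these 3 ratios, -0.63 to 0.45 for miR-26b-3p to miR-26b-5p and, in BoRed-seq, -1.26 to -0.58 for miR-107 to miR-26b-5p, -0.10 to 0.13 for miR-107 to miR-26a-5p and 0.56 to 1.31 for miR-26b-5p to miR-26a-5p. The cause of these changes was not tested. Among the log2 enrichments of members, the replicate block ended only the m7G-RIP-seq call of miR-26a-5p. For ratios in m7G-RIP-seq the p of the block cannot go below 0.0625 whatever the values, which is above the threshold for calls. The block therefore cannot decide whether a ratio differs, and no conclusion is drawn from it. Ratios with miR-103a-3p could not be computed, and its sum with miR-107 was miR-107 alone. The depth of Red left miR-26b-3p without a detectable fall, and whether miR-26a-2-3p was called depleted in Red depended on the fit.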
